A study of Mus musculus with 14 samples.

Results

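Adenylyl cyclases are the membrane enzymes that make cyclic AMP (cAMP), and this report describes the transcripts of Adcy1 to Adcy9 in mouse cells with and without a pulse of GLI1. The 9 genes were taken by name and matched by Entrez identifier to the authors' tables for day 5 (D5) and day 10 (D10), which hold 16060 genes in all. The tables of either day held 8 of the 9, and Adcy4 was in neither. The members were chosen by name and by presence in the tables, a filter on low values that the authors set. The family was taken up with the fold changes and p-values of both days known, so the authors' adjusted p-values for its members are given as a description.

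The cells were mouse embryonic stem cells of the line GLI1-FTA in the A2Lox.cre background, differentiated in culture. A2Lox.cre cells carry a docking site from which an inserted gene, here GLI1, is switched on by doxycycline. The D5 GLI1-induced group (4 libraries) received doxycycline at 500 ng/ml for 48 h up to day 5, and the D5 control group (4 libraries) was untreated. Both were labelled neural progenitor cells. The D10 GLI1-induced group (3 libraries) had the same pulse and was kept for 5 more days after the drug was washed out, and the D10 control group (3 libraries) was untreated. Both were labelled immature neurons. All groups share the line and its transgene, and doxycycline and GLI1 changed together, so the effects of the drug and of GLI1 cannot be told apart. The labels do not say whether libraries came from separate cultures.

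Adenylyl cyclases turn ATP into cAMP, and cAMP switches on protein kinase A (PKA). In the Hedgehog pathway PKA phosphorylates the GLI proteins at the base of the primary cilium, which favours the repressor form of GLI3 and holds GLI2 inactive, so cAMP restrains the pathway. The family is commonly sorted by what regulates it besides the stimulatory G protein. Adcy1, Adcy3 and Adcy8 are stimulated by calcium and calmodulin, Adcy2, Adcy4 and Adcy7 by G protein beta-gamma subunits, and Adcy5 and Adcy6 are inhibited by calcium and by inhibitory G proteins. Adcy9 stands apart in being poorly activated by forskolin. In the nervous system Adcy1 and Adcy8 are known for synaptic plasticity, Adcy3 for the cilia of neurons and olfactory cells and Adcy5 for the striatum.

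The sources used here hold a log2 fold change, an average level in CPM (read counts scaled to a common library size), a p-value and a p-value adjusted over all genes for each gene and day, and no value for a single library. Depth per library is therefore unknown, and how many libraries follow a direction cannot be given. In each group a mean level was derived from the average CPM and the fold change, and is called the implied level. An implied standard error (SE) was derived from the p-value. The induction was visible in the targeted gene: the authors' deposited table for D5 gave Gli1 a log2 fold change of 4.79, and its feedback targets Hhip and Ptch1 had 5.31 and 1.82 in the same authors' deposited table. Reads of the transgene and of the cell's own Gli1 are counted together there. At D10 the authors' deposited table gave Gli1 0.57, with an unadjusted p of 0.00161 and an adjusted p of 0.780. With p-values of the authors' deposited table rescaled among genes of like level, on the assumption that most such genes are unchanged, the adjusted p at D10 was 0.000219 for Gli1, 0.000701 for Hhip and 0.00319 for Ptch1, so that calls of this kind at D10 depend on the rescaling.

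While GLI1 was induced, the family's members moved in both directions. In the authors' deposited table for D5, Adcy7, Adcy2 and Adcy1 rose and Adcy8 fell at an adjusted p under 0.05. The other members in that authors' deposited table, Adcy3, Adcy5, Adcy6 and Adcy9, did not pass. Thus 4 of 8 members were called, 3 higher and 1 lower, where 4.44% of all 15108 genes were called (2.34% higher and 2.1% lower). The median log2 fold change of the members was 0.24, against 0.0015 over all genes. In bulk samples, fewer cells of a type and less RNA per cell cannot be told apart, and this holds for every change below.

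Adcy7, a cyclase stimulated by beta-gamma subunits and best known from blood and immune cells, had the largest rise of the family. Its implied level was 4.42 CPM in GLI1-induced cells and 1.42 CPM in control cells at D5. This was a 3.10-fold difference, with a log2 fold change of 1.63 (implied SE 0.27) and an adjusted p of 9.82e-08 in the authors' deposited table. By p-value it ranked 132 among the 15108 genes of the D5 table. Only 0.695% of genes had a larger log2 fold change in size.

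Adcy8, a calcium-stimulated cyclase of neurons, was the only member called lower. Its implied level was 1.48 CPM in GLI1-induced cells and 3.80 CPM in control cells at D5, so it was 2.57-fold higher in control cells. The authors' deposited table gave it a log2 fold change of -1.36 (implied SE 0.28) and an adjusted p of 9.52e-05. Among all genes of the D5 table, 1.10% had a larger log2 fold change in size. Adcy7 and Adcy8 had like average levels, at 1.55 and 1.40 on the log2 CPM scale in the authors' deposited table, so the opposite changes stood at similar CPM.

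Adcy2, the other measured cyclase stimulated by beta-gamma subunits, rose by less. Its implied level was 12.2 CPM in GLI1-induced cells and 7.44 CPM in control cells at D5, a 1.63-fold difference. The log2 fold change in the authors' deposited table was 0.71 (implied SE 0.18) with an adjusted p of 0.00341. Adcy1, the calmodulin-stimulated enzyme first known from brain, stood closest to the threshold. It had an implied level of 30.6 CPM in GLI1-induced cells and 23.9 CPM in control cells, a log2 fold change of 0.35 (implied SE 0.11) and an adjusted p of 0.0458 in the authors' deposited table. Holm's adjustment, a stricter one, left Adcy7 and Adcy8 called (2 of 8, where 1.6% of all genes were called), and so did a 2-fold minimum (2 of 8, against 1.65% of all genes). With the rescaled p-values all 4 calls stayed, where 5.12% of all genes were called.

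The members that did not pass at D5 differed in how tightly their values were bounded. Adcy6, a cyclase of many tissues that calcium inhibits, had implied levels of 59.0 CPM in GLI1-induced cells and 59.6 CPM in control cells. Its 95% interval on the log2 scale ran from -0.21 to 0.19. Its close relative Adcy5 had a log2 fold change of 0.37 in the authors' deposited table, about that of Adcy1, but at a lower level (7.94 CPM in GLI1-induced cells and 6.16 CPM in control cells). Its unadjusted p was 0.0462 and its adjusted p 0.447 in the authors' deposited table, and its interval ran from 0.0061 to 0.73. Adcy3, the cyclase used to mark neuronal cilia, had an interval from -0.31 to 0.54, and Adcy9 one from -0.64 to 0.38. For these last genes a change of the size seen for Adcy1 lies inside the interval.

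**Figure D1:**
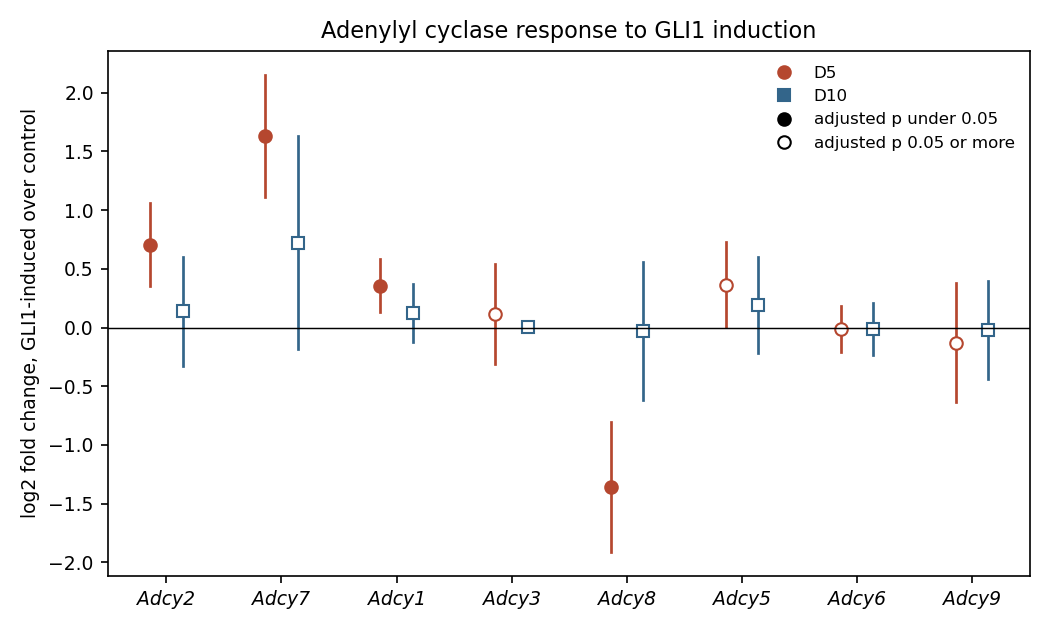
Log2 fold change (GLI1-induced over control, y axis) of the 8 measured adenylyl cyclases at D5 (circles) and D10 (squares), with bars for the 95% interval from the implied SE and filled symbols for an adjusted p under 0.05. At D5 Adcy7 stood at 1.63 and Adcy8 at -1.36 in the authors' deposited table, while no D10 symbol is filled. The D10 point of Adcy3 has no bar because its p-value of 1 gives no finite SE.

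**Figure D2:**
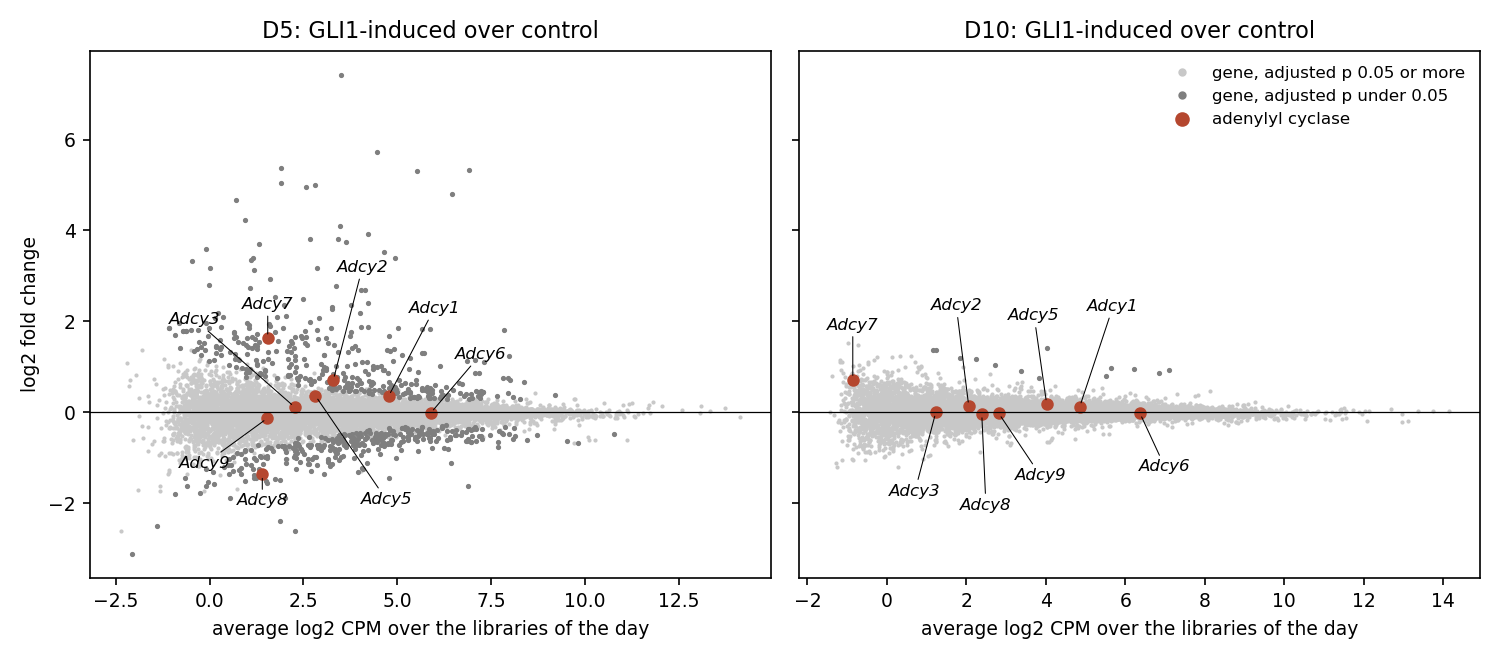
Average log2 CPM (x axis) and log2 fold change of GLI1-induced over control cells (y axis) for every gene of the 2 days, with genes of adjusted p under 0.05 in dark grey and adenylyl cyclases in red. At D5 Adcy7 and Adcy8 lie outside the band of light grey genes of their level, with other called genes farther out, and at D10 no member is past the threshold.

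At D10, 5 days after the drug was washed out, no member of the family passed. The authors' deposited table for D10 called 0 of 8 members, where 0.0826% of its 15744 genes were called, and 0 of 8 had an unadjusted p under 0.05, where 1.53% of all genes did. With the rescaled p-values 0 of 8 members were called at D10, where 0.756% of all genes were. The sources used here do not name the test behind the authors' p-values. Adcy7 had the largest value on that day as well, with a log2 fold change of 0.72 and an unadjusted p of 0.118 in the authors' deposited table. Its level was very low, at an implied 0.688 CPM in GLI1-induced cells and 0.417 CPM in control cells, and its interval ran from -0.18 to 1.63. Adcy7 lay near the low end of the D10 table, where 0.521% of genes had a lower average.

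Adcy8 had implied levels of 5.19 CPM in GLI1-induced cells and 5.29 CPM in control cells at D10. The log2 fold change was -0.028 in the authors' deposited table, with an interval from -0.62 to 0.56. For Adcy1 the authors' deposited table of D10 gave 0.12 (interval -0.12 to 0.37) and for Adcy2 0.14 (interval -0.33 to 0.60). Adcy5 stood at 0.19, Adcy3 at 0.0037, Adcy6 at -0.016 and Adcy9 at -0.021 in the authors' deposited table of that day. The D10 comparison rests on 3 libraries a group rather than 4, and a missing call there does not show that the levels were alike.

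Whether the response differed between the days was tested directly, from the difference of the log2 fold changes and the implied SEs, adjusted over the 14792 genes in both tables. Over all genes 1.24% differed, and 0 of 8 members did at an adjusted p under 0.05, with 1 of 8 (Adcy8) at an unadjusted p under 0.05, where 4.91% of all genes were. The 8 include Adcy3, which has no finite SE at D10 and was entered as no difference. Its result was thus set beforehand, and whether its response differed between the days cannot be said. Adcy8 came nearest, with a log2 response higher by 1.33 at D10 than at D5 (SE of the difference 0.41), and from the authors' deposited tables this difference had an unadjusted p of 0.00124 and an adjusted p of 0.0867. It passed at an adjusted p under 0.1 (1 of 8 members, where 1.5% of all genes did). With the rescaled p-values of the authors' deposited tables its adjusted p was 0.0489 (1 of 8 members, where 2.44% of all genes passed). For Adcy7 the D10 response minus the D5 response was -0.91 on the log2 scale, with an interval from -1.96 to 0.14, and for Adcy2 it was -0.57, with an interval from -1.15 to 0.011. The loss of the calls of Adcy7, Adcy2 and Adcy1 at D10 is therefore not shown to be a change in their response.

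The weight of each member in the family was compared per length, as implied CPM per kilobase (kb) of exon, with lengths from GENCODE M21. The authors' own annotation is not known, so these lengths are approximate. Adcy6 was the most abundant member in all 4 groups, at 8.70 CPM per kb in GLI1-induced cells and 8.78 in control cells at D5, and at 12.1 in GLI1-induced cells and 12.2 in control cells at D10. It made up 50.3% of the family's summed level in GLI1-induced cells and 57.3% in control cells at D5. At D10 its share was 59.3% in GLI1-induced cells and 61.3% in control cells.

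Behind Adcy6 the order of the members differed between groups at D5. In GLI1-induced cells Adcy2 (2.89 CPM per kb) and Adcy1 (2.44) came next, followed by Adcy5 (1.11), Adcy3 (0.801), Adcy7 (0.656), Adcy9 (0.533) and Adcy8 (0.182). In control cells Adcy1 (1.91 CPM per kb) and Adcy2 (1.77) came next, followed by Adcy5 (0.858), Adcy3 (0.740), Adcy9 (0.583), Adcy8 (0.467) and Adcy7 (0.212). Adcy8 was the lowest member in GLI1-induced cells and Adcy7 the lowest in control cells, and Adcy7 stood above both Adcy9 and Adcy8 in GLI1-induced cells. The spread between libraries is not known, so which neighbours in these orders differ beyond it cannot be said.

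Summed over the members, the family's level at D5 was 17.3 CPM per kb in GLI1-induced cells and 15.3 in control cells, a 1.13-fold difference that was not tested. The beta-gamma stimulated pair Adcy2 and Adcy7 held 20.5% of that sum in GLI1-induced cells and 12.9% in control cells. The calcium-calmodulin stimulated Adcy1, Adcy3 and Adcy8 together held 19.8% in GLI1-induced cells and 20.3% in control cells. The summed level of this class was 3.42 CPM per kb in GLI1-induced cells and 3.11 in control cells. That 1.10-fold difference, which was not tested either, stood beside 1.13-fold for the family. At D10 the family's sums were 20.42 CPM per kb in GLI1-induced cells and 19.96 in control cells. The beta-gamma stimulated pair held 5.58% of the D10 sum in GLI1-induced cells and 5.04% in control cells.

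The family's make-up also differed between the days in untreated cells. The tables of the days were normalised separately and no test spans them, so these levels are set side by side as a description. In control cells Adcy7 had 0.212 CPM per kb at D5 and 0.0619 at D10, Adcy2 had 1.77 at D5 and 0.944 at D10, and Adcy3 had 0.740 at D5 and 0.376 at D10. Adcy5 had 0.858 CPM per kb at D5 and 2.11 at D10, Adcy9 had 0.583 at D5 and 1.37 at D10, and Adcy6 had 8.78 at D5 and 12.2 at D10. Adcy8 had 0.467 at D5 and 0.649 at D10 in control cells. Adcy1 had 1.91 at D5 and 2.21 at D10 in control cells. Of the 3 members that rose under GLI1 at D5, Adcy7 and Adcy2 were thus lower and Adcy1 higher in controls on the later day, and Adcy8, which fell, was higher in them.

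**Figure D3:**
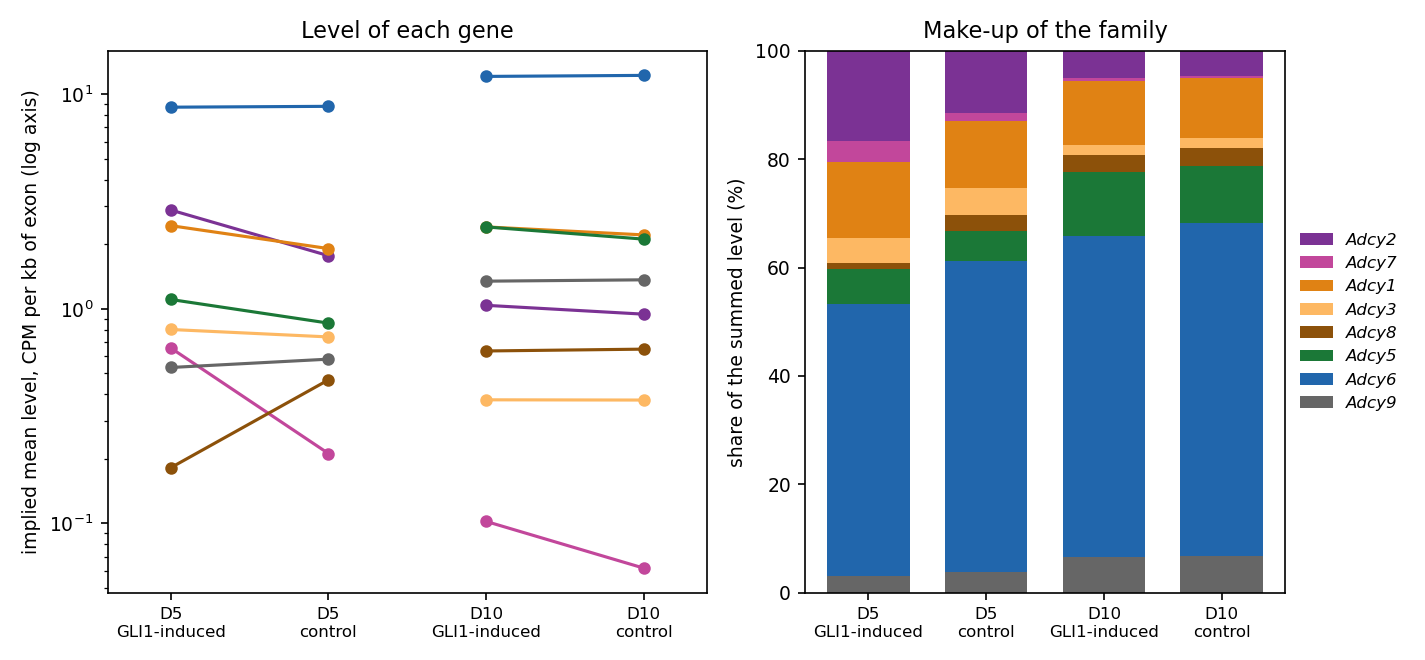
Left, implied mean level of each adenylyl cyclase in CPM per kb of exon (log axis) in the 4 groups, with lines joining GLI1-induced and control cells of a day; right, the share of each gene in the family's summed level (%). Adcy6 holds 50.3% to 61.3% of the sum, and the lines of Adcy7 and Adcy8 cross at D5. No error bars are shown because no value per library was used.

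Most other genes of the cAMP pathway did not pass with the cyclases at D5. Of 93 genes listed by role, 65 were in the D5 table and 7 of these were called in the authors' deposited table, 3 higher and 4 lower, which is 10.8% of those measured against 4.44% of all genes. Their median log2 fold change was 0.0015, the same as over all genes. At D10, 73 of the 93 were measured and 0 were called in the authors' deposited table, where 0.0826% of all genes were. Of the 73, 0 had an unadjusted p under 0.05, where 1.53% of all genes did. For a list of this length, 0 calls is near the share over all genes.

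Genes for the proteins nearest to the cyclases in the pathway held no call at D5, where 4.44% of all genes were called. In lists this short, 0 calls is near that share. Of the 7 measured G protein alpha subunits that act on adenylyl cyclase, 0 were called at D5, and Gnas, which encodes the stimulatory subunit, had -0.0017 on the log2 scale in the authors' deposited table. PKA came next: of its 8 measured subunits and inhibitors 0 were called at D5, with log2 fold changes from -0.060 to 0.19. Prkaca, the main catalytic subunit, stood at 0.034 in the authors' deposited table for D5.

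The pathway calls at D5 lay among receptors, the enzymes that break down cAMP and the proteins that anchor PKA. Over all genes 4.44% were called, and each of these lists is short. Among receptors known to inhibit cAMP production, 2 of 8 measured were higher and 1 lower at D5. The dopamine receptor gene Drd2 had an implied level of 6.69 CPM in GLI1-induced cells and 2.26 CPM in control cells, with a log2 fold change of 1.57 and an adjusted p of 2.48e-09 in the authors' deposited table. The somatostatin receptor gene Sstr2 stood at 0.89 (adjusted p = 0.0380) and the adenosine receptor gene Adora1 at -0.98 (adjusted p = 0.00107) in the authors' deposited table. The call of Sstr2 ended when the p-values of the authors' deposited table were rescaled (adjusted p = 0.227). Among receptors that couple to cAMP production, 1 of 8 measured was lower, the receptor gene Adcyap1r1 for the neuropeptide PACAP at -0.37 (adjusted p = 0.0106) in the authors' deposited table. Gpr161, a ciliary receptor that raises cAMP and restrains Hedgehog signalling, stood at 0.11 in the authors' deposited table for D5 and did not pass.

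Of the 13 measured phosphodiesterases, 1 was called at D5, as higher, where 4.44% of all genes were called. This was Pde1c, a calcium-calmodulin dependent enzyme, with an implied level of 8.29 CPM in GLI1-induced cells and 2.66 CPM in control cells. Its log2 fold change of 1.64 in the authors' deposited table (adjusted p = 1.11e-11) was about that of Adcy7. Among 10 measured A-kinase anchoring proteins, which tether PKA, 2 were lower in the authors' deposited table: Akap5 at -0.46 (adjusted p = 0.00622) and Akap12 at -0.52 (adjusted p = 0.0129). The 11 measured CREB family genes and other cAMP sensors held 0 calls at D5. The PKA substrates Gli2 (0.16) and Gli3 (-0.25) did not pass in the authors' deposited table for D5. Rescaling the p-values of the authors' deposited table added calls for Gli3 (adjusted p = 0.00276) and for the phosphodiesterase gene Pde1b, which stood at -0.40 (adjusted p = 0.0815 as deposited and 0.0214 rescaled).

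**Figure D4:**
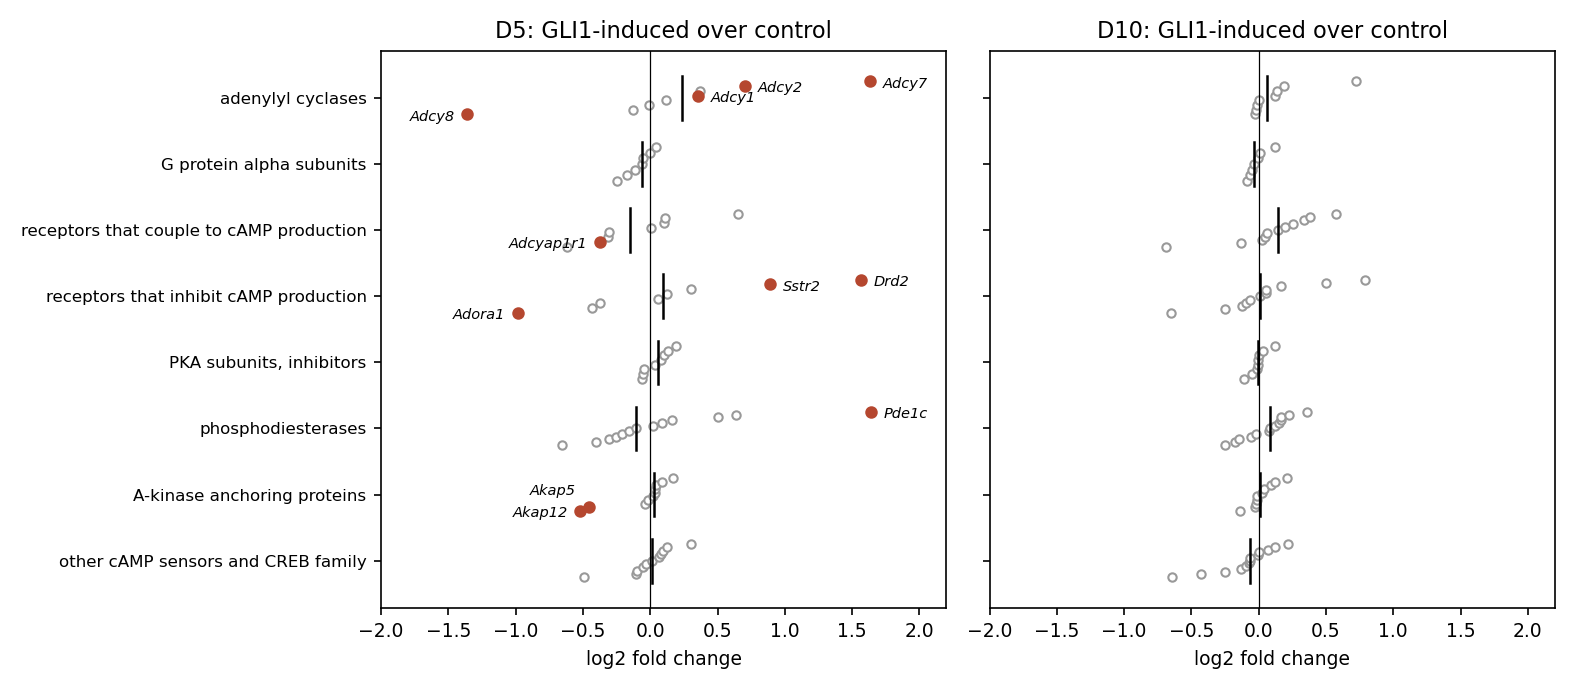
Log2 fold change (GLI1-induced over control, x axis) of each measured adenylyl cyclase and cAMP pathway gene by role (rows) at D5 and D10, with red points for an adjusted p under 0.05 and a black bar at each list's median. Of the named genes at D5, Adcy7 (1.63), Pde1c (1.64) and Drd2 (1.57) lie farthest to the right in the authors' deposited table, and no D10 point is red.

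Markers of cell types in the cultures moved at D5 as well. Over all genes 4.44% were called at D5 (2.34% higher and 2.1% lower) and 0.0826% at D10 in the authors' deposited tables. Of 10 neuron markers measured, 5 were lower and 0 higher at D5, with summed implied levels of 805 CPM in GLI1-induced cells and 1103 CPM in control cells. Of 8 neural progenitor markers 0 were called, with sums of 1944 CPM in GLI1-induced cells and 1957 CPM in control cells. Of 8 floor plate and ventral markers 7 were higher and 0 lower, with sums of 230 CPM in GLI1-induced cells and 50.7 CPM in control cells. Endoderm-like markers (Apoa1 was not in the D5 table) summed to 609 CPM in GLI1-induced cells and 809 CPM in control cells, with 3 of 9 lower and 0 higher. Their log2 fold changes were below 0 for 7 genes, but Afp stood at 0.86 and Ttr at 0.54. Cubn, not called, made up 283 CPM of the sum in GLI1-induced cells and 376 CPM in control cells. With the rescaled values Ttr was called higher, and Sox17 and Cubn were called lower as well, where 5.12% of all genes passed. At D10, 10 neuron markers summed to 2471 CPM in GLI1-induced cells and 2422 CPM in control cells with 0 called, while 10 endoderm-like markers summed to 1439 CPM in GLI1-induced cells and 1504 CPM in control cells, also with 0 called. The 8 neural progenitor markers summed to 1461 CPM in GLI1-induced cells and 1336 CPM in control cells at D10. All 8 log2 fold changes were above 0, with a median of 0.18 and 0 called in the authors' deposited table. With the rescaled values Nes (log2 fold change 0.35) and Fabp7 (0.19) were called higher at D10, where 0.756% of all genes passed. On that day 2 of 8 floor plate and ventral markers were higher in the authors' deposited table. Their list had sums of 196 CPM in GLI1-induced cells and 125 CPM in control cells.

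The smaller marker lists were mixed at D5, where 4.44% of all genes were called. Of 6 measured endothelium and blood markers 1 was higher, Sox18 at 7.43 on the log2 scale in the authors' deposited table, and 0 were lower. The list summed to 36.0 CPM in GLI1-induced cells and 18.9 CPM in control cells, of which Sox18 made up 22.6 CPM in GLI1-induced cells and 0.131 CPM in control cells. Pecam1 was in neither table. Of 6 pluripotency markers 2 were lower and 0 higher, with sums of 18.5 CPM in GLI1-induced cells and 29.6 CPM in control cells. Of 3 measured mesoderm and cardiac markers 1 was higher and 1 lower, with sums of 64.3 CPM in GLI1-induced cells and 108 CPM in control cells. Of 4 measured glial markers 0 were called, with sums of 23.3 CPM in GLI1-induced cells and 22.8 CPM in control cells, and Gfap was in neither table. At D10 these lists held 0 calls in the authors' deposited table, where 0.0826% of all genes were called. The glial marker Aqp4 stood at 1.12 there, with an adjusted p of 0.144. With the rescaled p-values its adjusted p was 0.00711, where 0.756% of all genes passed. The part of these shifts in the values of Adcy7, Adcy8, Adcy2 and Adcy1 was not tested.

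Reads of 50 bases can tell the members apart. In GENCODE M21 no 50-base run was shared between transcripts of any 2 of the 9 genes. Adcy8 shared 0.282% of its 50-base runs with other genes in the same sense, and the other members shared 0%. On the opposite strand, exons of Cenpo cover 22.1% of the exon bases of Adcy3, those of Gm29331 8.92% of Adcy6 and those of Gm35161 4.49% of Adcy2. That the libraries kept strand was taken from the labels and not checked, and it is not known whether counting used strand. The values of these members, of which Adcy2 was called, could therefore hold reads of their neighbours.

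The promoters of the members that rose are shown because letters of the GLI motif could be looked for there. The sequences are the 250 bases before the annotated start in RefSeq (GRCm38.p6), which held 10 promoters for 7 of the 9 genes, and none for Adcy6 and Adcy8. Each is written 5′ to 3′ on the gene's strand. Capitals mark CCACCC or its reverse complement GGGTGG, the core of the GLI motif, and TGACG or its reverse complement CGTCA, the short form of the cAMP response element. Adcy9, which did not pass, is printed beside the 3 that rose. The regions are chr8:88282742-88282991 on the plus strand for Adcy7 (the first of its 3 starts), chr13:68999542-68999791 on the minus strand for Adcy2, chr11:7063183-7063432 on the plus strand for Adcy1 and chr16:4420499-4420748 on the minus strand for Adcy9.
Adcy7: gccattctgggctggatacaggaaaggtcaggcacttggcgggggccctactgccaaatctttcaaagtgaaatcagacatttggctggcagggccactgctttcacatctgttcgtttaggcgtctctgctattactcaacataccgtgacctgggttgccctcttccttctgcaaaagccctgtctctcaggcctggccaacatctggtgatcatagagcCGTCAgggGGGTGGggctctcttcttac
Adcy2: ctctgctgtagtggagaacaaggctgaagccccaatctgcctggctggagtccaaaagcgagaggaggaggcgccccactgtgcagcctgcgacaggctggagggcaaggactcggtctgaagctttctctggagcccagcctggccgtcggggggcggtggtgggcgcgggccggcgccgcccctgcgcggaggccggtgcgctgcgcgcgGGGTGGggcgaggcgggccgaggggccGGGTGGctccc
Adcy1: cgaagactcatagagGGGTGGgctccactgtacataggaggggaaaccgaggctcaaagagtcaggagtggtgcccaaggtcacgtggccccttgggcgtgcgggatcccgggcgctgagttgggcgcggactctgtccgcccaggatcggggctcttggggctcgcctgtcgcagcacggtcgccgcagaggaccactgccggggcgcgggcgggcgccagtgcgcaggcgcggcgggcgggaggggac
Adcy9: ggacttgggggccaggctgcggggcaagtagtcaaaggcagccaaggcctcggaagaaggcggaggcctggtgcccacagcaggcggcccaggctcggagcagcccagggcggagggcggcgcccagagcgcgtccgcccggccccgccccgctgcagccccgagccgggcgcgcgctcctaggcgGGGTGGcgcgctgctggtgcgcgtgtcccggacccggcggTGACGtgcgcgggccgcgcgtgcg

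The full GLI consensus GACCACCCA (reverse complement TGGGTGGTC) was in none of the 10 promoters of the family, where 0.225% of all 32851 promoters held it on either strand. The core CCACCC was found once in Adcy7 (positions -20 to -15 from the start), once in Adcy1 (-235 to -230) and at 2 places in Adcy2 (-38 to -33 and -11 to -6). It was also in Adcy9 (-64 to -59) and in 1 promoter of Adcy3, members that did not pass. Starts 2 and 3 of Adcy7 held neither the core nor the short response element, and neither did the promoters of Adcy4 and Adcy5. By gene, 30.6% of the 27025 genes with a promoter held the core. The short response element stood at -28 to -24 in Adcy7, next to the core there, and at -24 to -20 in Adcy9, and 19.8% of all genes held it. The 8-base element TGACGTCA, which contains the short form, was in none of the family's promoters and in 1.55% of all promoters. The windows of Adcy2, Adcy1 and Adcy9 were rich in G and C, at 73.2%, 71.2% and 78.8%, that of Adcy7 held 54%, and the median over all promoters was 52.4%. These matches describe letters in the window and show no binding.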

How the data were processed

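RNA was sequenced from 14 libraries in 4 groups, as stranded single-end reads of 50 bases from polyadenylated RNA, per the labels' protocols. Aligner, counting, test and genome build: not given in the sources used here. Per the file headers, the authors made and deposited log2 fold changes and log2 average CPM values per Entrez gene. P-values and FDRs per gene were also deposited by the authors, who adjusted over the full table of each day. Base 2 was checked for the average CPM, whose antilogs sum to 1001540 at D5 and 1001340 at D10, and was assumed for the fold change. Recomputed Benjamini-Hochberg values differ from the authors' FDR by at most 2.72e-06 at D5 and 3.41e-05 at D10. Symbols came from a RefSeq gene table of GRCm38.p6 and from the authors' selected tables, and matched 94.7% of genes at D5 and 94.6% at D10.

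Implied SEs are the size of the log2 fold change over the size of z from the p-value. They inherit the assumptions of the authors' test and are no SD of replicates. Implied group levels take the average CPM as the mean of both groups. Differences between days used a normal reference, two-sided, with 227 genes at D5 and 288 at D10 without a finite SE entered as no difference where in both tables. The calculation was tested on simulated data. Python 3.11.15, numpy 2.4.6, pandas 2.3.3 and scipy 1.17.1 were used. The members, lists and tests were chosen with earlier results of these data known. All members, all called pathway genes and Gli1, Ptch1 and Hhip are named by rule. For the rescaled p-values, z was multiplied in bins of about 500 genes of like average CPM so that its median size was that of a standard normal. The regulatory classes and the searched motifs were chosen after the values were seen. Also named after their values were seen were Gnas, Prkaca, Gpr161, Gli2, Gli3, Pde1b, Sox18, Cubn, Afp, Ttr, Sox17, Aqp4, Nes, Fabp7 and the absent markers.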

Additional observations from a re-analysis of the deposited data

How the results depend on the processing

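No value per library was used, so no replicate could be left out. No paired analysis was possible because the deposited columns carry no replicate. At D5, the call of 4 members became 2 with Holm's adjustment (1.6% of all genes called) and 2 with a 2-fold minimum (1.65% of all genes), in both cases Adcy7 and Adcy8. At an adjusted p under 0.01 it became 3, without Adcy1 (2.87% of all genes called). The count stayed at 4 at an adjusted p under 0.1 (5.32% of all genes) and with the rescaled p-values (5.12%). It was also 4 with a minimum of 1 for the average log2 CPM (4.37% of such genes). The 7 pathway genes called at D5 became 4 at an adjusted p under 0.01 (2.87% of all genes). They became 2 with Holm's adjustment (1.6% of all genes) and 2 with a 2-fold minimum (1.65%). At D10 the count of members and of pathway genes was 0 under every one of these settings. Of the members, 1 (Adcy8) differed between days at an adjusted p under 0.1 (1.5% of all genes) and 1 with rescaled p-values (2.44% of all genes), against 0 at 0.05. Adcy3, without a finite SE at D10, could not be tested between days under any of these settings. With the longest transcript as length, chosen after seeing the data, Adcy6 held 52.3% of the family's level in GLI1-induced cells and 59.2% in control cells at D5. Without Adcy6 in the sum, likewise chosen after seeing the data, the D5 ratio of GLI1-induced to control was 1.32 in place of 1.13. Depth per library is unknown, and Adcy7 at D10, at under 1 CPM in either group, is the member that low counts limit most.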
